A study of Homo sapiens with 2 samples.

Results

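The contractile COL1A1 cells were 72 cells of the day 160 library that carried transcripts of both COL1A1, which encodes the α1 chain of collagen type I, and TAGLN, which encodes the smooth muscle actin-binding protein transgelin. They were chosen from barcodes with at least 1000 detected genes and at most 15% of their unique molecular identifiers (UMIs, each 1 captured RNA molecule) from mitochondrially encoded genes, as those with 3 or more UMIs of COL1A1 and 3 or more of TAGLN. Of 13018 day 160 barcodes 9972 passed, so the 72 cells were 0.722% of passing cells (exact Clopper-Pearson 95% interval 0.565 to 0.908) and 9900 other cells remained for comparison. The library was made from astrocyte progenitor cells of H7, an established line of human embryonic stem cells, given the agents LIF, BMP4 and FGF1. All day 160 cells shared this line and these agents, 3 separate differentiations were combined before loading, and no label tells the differentiations apart. A second library, with the same line and agents, is labelled day 220 by its title and time point, though its protocol text repeats the earlier day. It held 11 cells of the same rule among 524 that passed, and 513 others. Each library was 1 sample, so no comparison has a replicate, no p-value was computed, and every interval covers counting error only. With 1 line and pooled differentiations, a feature of the culture cannot be told apart from a feature of the day.

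Smooth muscle cells and myofibroblasts share a contractile apparatus of smooth muscle actins, calponin, transgelin, tropomyosins and caldesmon, whose genes respond to the transcription factor SRF and its cofactors when actin polymerises. Collagen type I is normally a trimer of α1 and α2 chains, folded in the endoplasmic reticulum by prolyl and lysyl hydroxylases and crosslinked outside the cell by lysyl oxidases. In the brain, collagen type I is made mainly by perivascular and leptomeningeal fibroblasts, and astrocytes and their progenitors are not usually described as a source of it.

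COL1A1 (ENSG00000108821, chromosome 17, 50183289 to 50201632, GRCh38, GENCODE release 29) ranged from 3 to 598 UMIs in the 72 cells, with a median of 16, and TAGLN (ENSG00000149591, chromosome 11, 117199321 to 117204782) ranged from 8 to 1265 with a median of 126.5. COL1A1 was seen in 127 of the 9900 other cells. These are the values that chose the cells and carry no further weight. At the limit, 12 chosen cells had exactly 3 COL1A1 UMIs and a summed ACTA2 level of 1411 UMIs per 1000000 UMIs (CPM, counts scaled to the total of the cell or group), ACTG2 88.6 CPM and C6orf15 42.0 CPM. Just outside, 5 cells with 2 COL1A1 UMIs had 1873, 18.3 and 102 CPM of the same genes. Far inside, 13 cells with 100 or more COL1A1 UMIs had 2244, 994 and 1193 CPM. TAGLN was the looser limit: 456 other cells also reached 3 TAGLN UMIs, 417 of them with no COL1A1 UMI, while only 2 passing cells reached the COL1A1 limit and not the TAGLN limit.

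**Figure D1:**
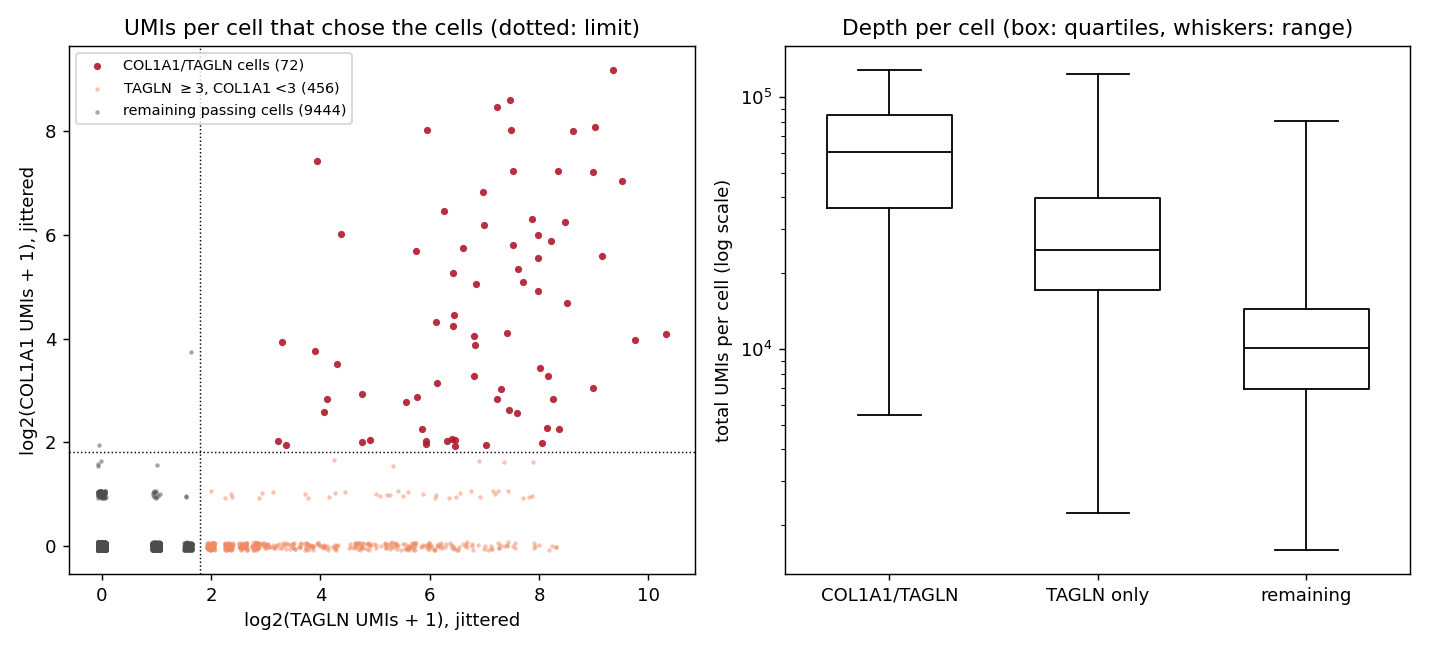
Left, UMIs of TAGLN (x) and COL1A1 (y) per passing day 160 cell on a log2 scale, with small random shifts and dotted lines at the limit of 3 UMIs. Right, total UMIs per cell on a log axis, where the median was 60677 in the 72 cells and 24721 in the 456 cells that passed the TAGLN limit alone.

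The chosen cells were deep. Their median was 60677 UMIs (5493 to 128393) and 7558.5 detected genes, against 10410 UMIs (1590 to 123210) and 3281.5 genes in the other cells. The mitochondrial share was alike, with medians of 12.3% and 11.9%. Of the 72 cells, 63 had 30000 or more UMIs, against 348 of 9900 others, and the 72 cells supplied 15.3% of all passing cells that deep. A doublet of 2 cells also carries more UMIs, and the doublet caller Scrublet marked 1 of the 72 cells (1.39%, 0.0352 to 7.50) against 582 of 9900 others (5.88%, 5.42 to 6.36). The median doublet score was 0.0997 in the 72 cells and 0.0410 in the others. Among 72 other cells paired to them 1 to 1 by total UMIs, with a median of 60903 UMIs and 7940.5 genes, 10 were marked and the median score was 0.0981. What part depth or doublets the caller missed play in the ratios below was not tested beyond these depth-paired values, which are printed beside the gene groups. Of 13018 barcodes at day 160, 3 also occurred among the 676 of the day 220 library, none of them among the 72.

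Clustering of all passing cells, done without regard to the rule, put 71 of the 72 in 1 cluster of 297 cells and the last in the largest cluster, which was led by HLA class II genes. The cluster of 297 held 210 of the 456 TAGLN cells under the COL1A1 limit, had a median of 34069 UMIs, and its leading genes included TAGLN, COL1A1, ACTA2, ACTG2, C6orf15, CCN2, CCL2, ANKRD1 and TPM1. The clustering used the counts of COL1A1 and TAGLN too, so it is no independent check of the choice.

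The remaining markers given for these cells, the smooth muscle actin genes ACTA2 and ACTG2 and C6orf15, were present. They were chosen on these same data, so their presence describes the cells and does not test the label. ACTA2 (ENSG00000107796, chromosome 10, 88935074 to 88991339), smooth muscle α-actin, had a lowest, median and highest level per cell of 12.9, 2103 and 8410 CPM, and all 72 cells carried it. Summed over cells it stood at 2507 CPM against 170 CPM in the others, 14.7-fold higher (14.4 to 15.1). ACTG2 (ENSG00000163017, chromosome 2, 73892314 to 73919865), smooth muscle γ-actin, had 0, 207 and 8479 CPM per cell and 61 cells carried it. Its summed level was 659 CPM against 5.29 CPM, 125-fold higher (115 to 136). C6orf15 (ENSG00000204542, chromosome 6, 31111223 to 31112559) had 0, 110 and 6317 CPM per cell, with UMIs in 54 cells, and 575 CPM against 2.03 CPM when summed, 284-fold higher (249 to 324). The per-cell ranges of all 3 genes overlapped those of the other cells, where the highest cell had 9869.7 CPM of ACTA2, 3248 CPM of ACTG2 and 2070.4 CPM of C6orf15. For each gene, the cell with the most of its UMIs gave 6.14% of ACTA2, 13.7% of ACTG2 and 15.9% of C6orf15 UMIs.

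**Figure D2:**
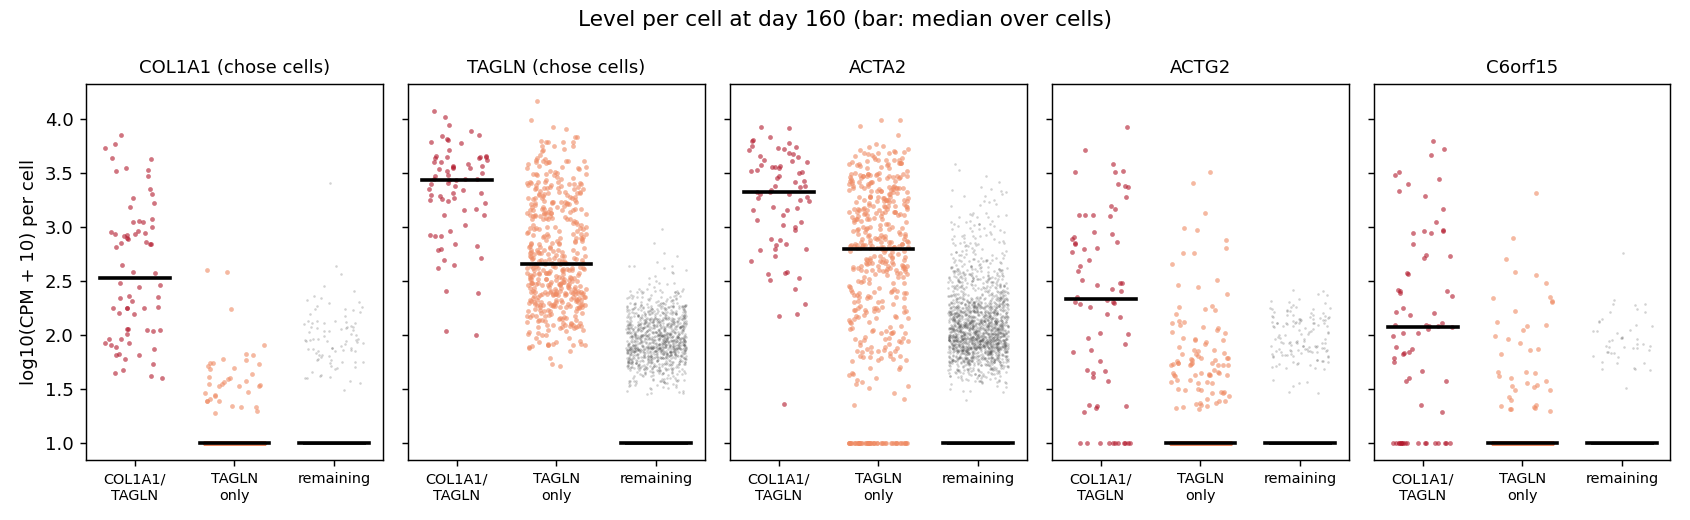
Level per cell, as log10 of CPM + 10, of the 5 markers in the 72 cells, the 456 cells that passed the TAGLN limit alone and the 9444 remaining passing cells, with bars at the medians; COL1A1 and TAGLN chose the groups. ACTA2 was spread widely in the TAGLN-only cells, while ACTG2 and C6orf15 had a median of 0 there and medians of 207 and 110 CPM in the 72 cells.

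Depth inflates the share of cells with a UMI, so shares were also taken after thinning every cell to 5000 UMIs, which left out none of the 72 cells and 693 of the others. At that depth ACTG2 was seen in 43 of 72 cells (59.7%, 47.5 to 71.1) against 85 of 9207 others (0.923%, 0.738 to 1.14), where unthinned shares were 84.7% and 2.38%. ACTA2 was seen in 70 of 72 (97.2%) against 1229 of 9207 (13.3%), unthinned 100% and 21.4%. C6orf15 was seen in 31 of 72 (43.1%, 31.4 to 55.3) against 34 of 9207 (0.369%), unthinned 75% and 0.889%. As a measure of free RNA, cells with 3 or more UMIs of the neuronal gene STMN2, whose median depth was 6358.5 UMIs, had a UMI of ACTA2 in 5 of 142 (3.52%) and of ACTG2 and C6orf15 in 0 of 142 when thinned, where 3 counts of the total, the limit used for a count of 0, allow a share of up to 2.11%. The shares in the 72 cells were above these.

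Across the transcriptome, 9216 genes reached 10 CPM in the 72 cells or in the others, leaving out COL1A1 and TAGLN. Fold changes from here are log2 of (CPM + 1) over (CPM + 1) of summed counts, and a gene is called higher or lower where the groups differ at least 2-fold. By that rule 717 genes (7.78%) were higher and 711 (7.71%) lower, and all tested genes together had a median of -0.14. List counts below are to be read beside these shares. A gene that reached 10 CPM in only 1 of the groups could only come out higher there, which holds for several listed genes below. Another 5 cells per chosen cell were also matched by total UMIs, which gave 399 of 9045 genes (4.41%) higher and 385 (4.26%) lower, but their median was only 38205.5 UMIs. Against the 72 depth-paired cells, a comparison added after the data were seen, 304 of 8967 genes (3.39%) came out higher and 233 (2.6%) lower, and the median was -0.09. The paired cells were drawn from all others by total UMIs alone, and TAGLN cells under the COL1A1 limit were not left out. How many of the paired cells were of that kind is not given. The log2 ratio of ACTA2 was 1.52 against the paired cells and 3.87 against all others. The paired cells thus held more ACTA2 than the others as a whole, and depth-paired values do not adjust for depth alone. Where a call ended against the paired cells, depth and the kind of cell cannot be told apart. With the mitochondrial limit at 25% the rule chose 91 of 12001 cells (0.758%), and 740 genes were higher and 762 lower. The log2 ratio of ACTA2 was then 4.02, of ACTG2 6.96 and of C6orf15 7.79, against 3.87, 6.71 and 7.57 at 15%.

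Genes of the contractile apparatus were higher nearly throughout. Of 19 listed genes 15 were tested, 13 were higher and 0 lower, and their median log2 ratio was 2.78, beside -0.14 over all genes tested. TPM1, a tropomyosin that covers actin filaments, had 104, 2035 and 7560 CPM as lowest, median and highest per cell and 2253 CPM summed against 150 CPM in the others (log2 3.90). CALD1, or caldesmon, had 758, 3184 and 8253 CPM per cell (log2 2.16). MYLK, the kinase that switches on smooth muscle myosin, had 435 CPM against 12.6 CPM (log2 5.0), and CNN1, calponin of differentiated smooth muscle, had 133 CPM against 4.67 CPM (log2 4.56). LMOD1, which nucleates actin filaments in smooth muscle, had a log2 ratio of 3.05. Other genes of differentiated smooth muscle were at or near 0. MYH11, the smooth muscle myosin heavy chain, had 2 UMIs in all 72 cells (0.441 CPM) against 0.555 CPM in the others. The intermediate filament gene DES and the SRF cofactor gene MYOCD had 0 UMIs, against 4 and 0 UMIs in the others, where 3 UMIs in the 72 cells correspond to 0.661 CPM. The tested genes that were not called were MYL6 (log2 0.53) and CNN3 (-0.24). At least ACTG2, CNN1 and MYL9 reached 10 CPM only in the 72 cells, so they could only come out higher. Against the depth-paired cells 10 of 15 were higher and 0 lower (median 1.52), and ACTA2 was at 1.52, ACTG2 at 5.04, TPM1 at 1.89, MYLK at 1.97, CNN1 at 2.03 and CALD1, no longer called, at 0.84.

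The wider actin cytoskeleton and its SRF-linked genes differed less. Of 15 tested, 10 were higher and 1 lower, median 1.30. MYH9, non-muscle myosin, had 382 CPM against 35.5 CPM (log2 3.39), and the focal adhesion genes ZYX and VCL had log2 ratios of 1.43 and 1.51. FHL1, a LIM-domain gene of muscle, was lower at -1.19. SRF itself had 21.6 CPM against 11.4 CPM (0.86), and the cytoplasmic actins ACTB and ACTG1 had 0.66 and 0.28. In the depth-paired comparison 4 of 15 were higher and 0 lower, median 0.58, and VCL was at 0.13.

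Targets of YAP, a coactivator that responds to stretch and spreading, were listed as 14 genes, all tested, of which 7 were higher and 1 lower, median 1.22. ANKRD1, a stretch-induced ankyrin repeat protein, had 0, 70.8 and 1737 CPM per cell, UMIs in 49 cells, and 322 CPM against 5.86 CPM (log2 5.56). CCN2, connective tissue growth factor, had 0, 266 and 5340 CPM per cell and 562 CPM against 36.6 CPM (log2 3.91). CCN1, its relative, had 388 CPM against 94.0 CPM (log2 2.03), and F3, tissue factor, was lower at -1.12. Only ANKRD1 and CCN2 stayed 2-fold higher against the depth-paired cells, at 2.10 and 1.06, and the list median was 0.19, with CCN1 at 0.48.

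The proximal promoters of a contractile gene and of 2 YAP targets are shown because these genes were high in the same cells. Each line is the 250 bases before the RefSeq start site in GRCh38.p14, read 5′ to 3′ on the gene's strand. The windows are ACTG2 at chr2:73892758-73893007 (plus strand), ANKRD1 at chr10:90921088-90921337 (minus strand) and CCN2 at chr6:131951373-131951622 (minus strand). Capitals mark the CArG box, the site letters bound by SRF, in ACTG2, and GGAATG, the core letters of sites bound by TEAD partners of YAP, in ANKRD1 and CCN2.
ACTG2: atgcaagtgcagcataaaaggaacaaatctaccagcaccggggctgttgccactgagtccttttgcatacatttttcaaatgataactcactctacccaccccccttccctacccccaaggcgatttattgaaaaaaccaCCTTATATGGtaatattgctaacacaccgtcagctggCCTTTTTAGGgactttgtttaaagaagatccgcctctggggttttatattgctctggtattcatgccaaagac
ANKRD1: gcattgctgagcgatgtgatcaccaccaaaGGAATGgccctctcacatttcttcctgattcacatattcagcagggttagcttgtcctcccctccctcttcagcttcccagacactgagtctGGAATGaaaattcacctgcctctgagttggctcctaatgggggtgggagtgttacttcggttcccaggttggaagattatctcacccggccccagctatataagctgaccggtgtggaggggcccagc
CCN2: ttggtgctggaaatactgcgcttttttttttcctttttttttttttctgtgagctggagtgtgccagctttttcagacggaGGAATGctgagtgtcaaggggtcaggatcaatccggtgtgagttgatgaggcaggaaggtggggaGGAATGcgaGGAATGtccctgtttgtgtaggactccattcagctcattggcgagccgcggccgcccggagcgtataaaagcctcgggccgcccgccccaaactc
In ACTG2 the CArG matches began 110 and 73 bases before the start site. In ANKRD1 the GGAATG matches began 220 and 128 bases before it, and in CCN2 169, 104 and 95 bases before it. Both motifs were searched on both strands in windows of 300 bases that also hold the first 50 bases of the transcript, and none of the 3 windows shown held both. A CArG box was found in 454 of 35116 RefSeq promoters (1.29%) and in 4 of 16 matched contractile genes, ACTG2, CNN2, MYLK and TPM4. GGAATG was found in 14% of promoters and in 4 of 10 matched genes of the YAP list, ANKRD1, CCN2, LATS2 and YAP1. These list counts took 1 window per gene, while the 35116 promoters were counted without that limit. By that count GGAATG was also in 4 of the 16 contractile genes, CALD1, LMOD1, MYLK and SYNPO2, as many as held a CArG box. ACTA2, of the same list, held GGAATG 183 bases before the start site in a window that was not counted. Of the 10 matched YAP list genes 0 held a CArG box. ACTA2, which has 2 start sites in the table, and CNN1 held no CArG match of these letters in their windows, which says nothing of sites elsewhere.

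COL1A1 was not accompanied by the other chain of collagen type I. COL1A1 stood at 993 CPM, by choice, while COL1A2 had 2 UMIs in all 72 cells (0.441 CPM) against 266 UMIs (2.14 CPM) in the others. COL3A1, COL6A3, COL12A1, POSTN and LUM had 0 UMIs in the 72 cells and between 2 and 23 UMIs in the others, and DCN and BGN had 0 in both groups, so that their 0 does not set the 72 cells apart. Whether the counting could miss these genes was not tested. A count of 0 allows up to 0.661 CPM in the 72 cells, so these genes were not detectable there at this depth, and they were near the limit of detection in the whole library. After thinning, COL1A2 was in 0 of 72 cells, where the limit of 3 counts allows a UMI in up to 4.17% of cells, and in 103 of 9207 others (1.12%), beside 2 of 142 STMN2 cells (1.41%). The unthinned shares were 2.78% of the 72 cells and 1.74% of the others.

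Other matrix genes were higher together with COL1A1. Of 28 listed genes 17 were tested, 14 were higher and 1 lower, median 2.38. COL5A1 and COL5A2, chains of the collagen that nucleates type I fibrils, had 16.5 CPM against 0.635 CPM (log2 3.42) and 193 CPM against 40.1 CPM (2.24). FN1, fibronectin, had 0, 37.0 and 1236 CPM per cell, with UMIs in 57 cells, and 84.2 CPM against 8.63 CPM (3.14). TNC, the matrix glycoprotein tenascin C of glia and healing tissue, had UMIs in all 72 cells, 19.0, 492 and 2738 CPM per cell and 627 CPM against 74.8 CPM (3.05). TGFBI, a matrix protein induced by TGF-β, had UMIs in 35 cells and 33.7 CPM against 0.121 CPM (4.95), and MFAP5, of elastic microfibrils, had 42.8 CPM against 0.981 CPM (4.46). THBS1 (3.63), FBN1 (2.64), ELN (2.38) and SPARC (1.30) were also higher, and FBLN1, fibulin 1, was lower at -2.48. At least COL5A1, FN1, TGFBI and MFAP5 reached 10 CPM only in the 72 cells, so they could only come out higher. Against the depth-paired cells 11 of 17 were higher and 1 lower, median 1.23: TGFBI was at 3.89, ELN at 2.67, FN1 at 2.59, MFAP5 at 2.39, COL5A1 at 1.62 and TNC at 1.36, while COL5A2, at 0.67, and SPARC, at 0.18, were no longer called.

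**Figure D3:**
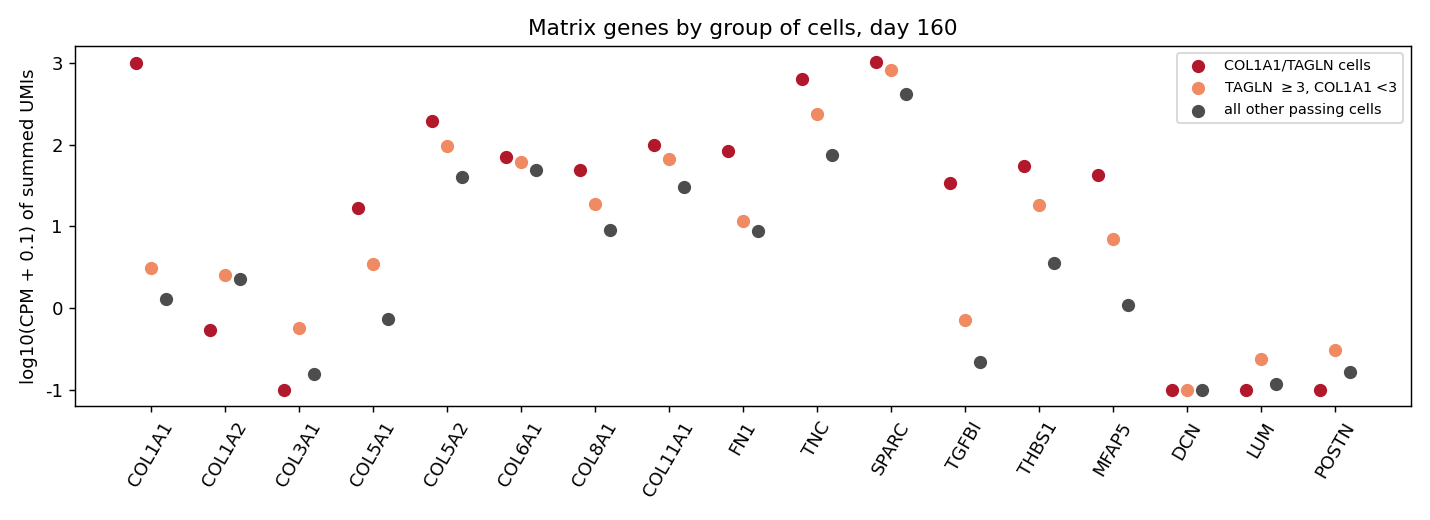
Summed level of 17 matrix genes at day 160, as log10 of CPM + 0.1, in the 72 cells, the 456 TAGLN cells under the COL1A1 limit and all 9900 other cells; the 456 are part of the 9900, and -1 marks a gene with 0 UMIs. COL1A1 chose the cells, COL1A2 was at 0.441 CPM in them, and COL3A1, DCN, LUM and POSTN were at 0.

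Basement membrane genes had 8 of 11 tested higher and 0 lower, median 1.44, with HSPG2 (perlecan, 3.63), LAMB1 (3.20), COL18A1 (3.01) and LAMC1 (2.44). In the depth-paired comparison 4 of 12 were higher, median 0.52, and COL4A1, at 1.22 against all others, was at 0.11.

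The enzymes that process collagen were mostly higher. Of 16 tested 10 were higher and 1 lower, median 1.27. BMP1, which trims the procollagen end, had 94.5 CPM against 8.74 CPM (3.29). P4HA2, a prolyl hydroxylase, had 57.3 CPM against 5.62 CPM (3.14), PLOD1, a lysyl hydroxylase, had a log2 ratio of 2.35, and the collagen chaperone SERPINH1 had 1.83. LOXL2 and LOXL1, crosslinking enzymes, had 3.09 and 2.15, while the founding member of that family, LOX, was lower at 16.1 CPM against 37.9 CPM (-1.19). CREB3L1, a membrane-bound transcription factor known to drive COL1A1 in bone, had UMIs in 31 cells and 18.1 CPM against 0.402 CPM (3.77). Secretory pathway genes as a whole had 5 of 19 tested higher and 0 lower, median 0.60, with TRIB3 at 2.09 and the chaperone HSPA5 at 0.60. Depth-paired, the collagen enzymes had 8 of 17 higher and 1 lower, median 0.83, with BMP1 at 2.21, and the lower gene was P3H2, a prolyl hydroxylase (-1.11). LOX, at -0.996, was no longer called. The secretory list had 2 of 19 higher depth-paired, median 0.57, CREB3L1 (3.03) and TRIB3 (2.30). Over all genes tested depth-paired, 3.39% were higher.

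Secreted signals were also mostly higher against all other cells, and fewer of them against depth-paired cells. Of 25 listed genes 15 were tested, 13 were higher and 0 lower, median 2.61. LIF, the cytokine that was also given to the cultures, had 0, 22.5 and 400 CPM per cell, UMIs in 43 cells, and 61.5 CPM against 1.42 CPM (log2 4.69). IL11, a cytokine of the same receptor family linked to fibrosis, had UMIs in 56 cells and 53.1 CPM against 1.95 CPM (4.2). PDGFB (3.86), CXCL12 (3.45), CCL2 (2.77), PDGFA (2.74) and HBEGF (2.61) were higher, as was IGFBP3, a binding protein of insulin-like growth factors (4.75). At least LIF, IL11 and IGFBP3 reached 10 CPM only in the 72 cells, so they could only come out higher. BMP4, CXCL1, CXCL8 and BMP5 had 0 UMIs in the 72 cells and between 0 and 6 in the others. LIFR, the receptor of LIF, had 13.4 CPM against 25.5 CPM (-0.88), and its partner IL6ST had -0.25. Depth-paired, 5 of 15 were higher and 0 lower, median 0.75: CXCL12 was at 2.91, LIF at 2.79, IL11 at 2.73, PDGFB at 1.74 and PDGFA at 1.57, while IGFBP3, at 0.87, and CCL2, at 0.27, were not called.

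Genes of the TGF-β pathway had 8 of 14 tested higher and 0 lower, median 1.11. The ligand TGFB1 had 182 CPM against 36.4 CPM (2.29), the receptor TGFBR2 had 1.69, and PMEPA1, a target that feeds back on the pathway, had 740 CPM against 102 CPM (2.85). Depth-paired, 3 of 14 were higher and 1 lower, with PMEPA1 at 1.89. PLAU, or urokinase, a protease that activates plasminogen, was higher at 3.06, and the list of matrix proteases and their inhibitors had 5 of 10 tested higher and 0 lower, median 0.98 (depth-paired 4 of 10, median 0.50). EDN1, the vasoconstrictor endothelin 1, had 115 CPM against 2.27 CPM (5.14, depth-paired 2.19), and CCND1, a cyclin of the G1 phase, had 306 CPM against 9.01 CPM (4.94, depth-paired 2.47).

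Integrins and adhesion genes had 8 of 14 tested higher and 2 lower, median 1.41. ITGA4 (4.35), ITGA3 (3.75), the fibronectin receptor chain ITGA5 (3.31) and ITGAV (2.62) were higher, and the neural adhesion gene NCAM1 was lower at -1.55. Of 17 tested growth factor receptors 3 were higher and 1 lower, median 0.20, where 7.78% of all tested genes were higher and 7.71% lower. MET, the receptor of hepatocyte growth factor, had 22.9 CPM against 1.06 CPM (3.54), and PDGFRA, which marks oligodendrocyte precursors and fibroblasts, was lower at 54.9 CPM against 320 CPM (-2.52). Depth-paired, 5 of 14 adhesion genes were higher and 1 lower, with ITGA4 at 2.75, ITGA5 at 2.36, MET at 1.72 and PDGFRA at -1.63. The receptor list then had 2 of 18 higher and 1 lower, median -0.23, where 3.39% and 2.6% of all tested genes were.

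Genes more usual in epithelia were part of the pattern. Of 10 listed epithelial genes 4 had 0 UMIs in the 72 cells and 4 were tested. All 4 tested genes were higher: the tight junction gene CLDN4 (4.64) and the keratin genes KRT7 (4.07), KRT18 (3.80) and KRT8 (2.94). They reached 10 CPM only in the 72 cells, so they could only come out higher. KRT7 had UMIs in 45 of the 72 cells and 31.5 CPM against 0.933 CPM. Depth-paired they were at 3.87, 2.76, 2.28 and 1.20. Of the defining genes of epithelium, EPCAM and KRT5 had 0 UMIs and CDH1 had 3.

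A few of the highest genes belong to no list above. TUBA4A, an α-tubulin, had UMIs in 42 cells and 98.95 CPM against 1.67 CPM (log2 5.22, depth-paired 4.25). PHLDA2, an imprinted gene of growth restraint, had UMIs in 63 cells and 193 CPM against 6.61 CPM (4.68, depth-paired 2.66). IL32, a cytokine gene of inflamed tissue, had UMIs in 54 cells and 65.7 CPM against 2.16 CPM (4.40, depth-paired 2.19), and GJB2, the gap junction gene connexin 26, was in 19 cells with 22.7 CPM against 0.105 CPM (4.42). The list of annexins, S100 proteins and galectins had 7 of 16 higher and 1 lower, median 0.85, with caveolin gene CAV1 at 3.56 (depth-paired 1.16) and galectin gene LGALS3 lower at -1.66 (depth-paired -1.02). Depth-paired that list had 6 of 16 higher and 1 lower, median 0.56. Glycolysis genes had 3 of 9 higher and 0 lower, median 0.70, led by the glucose transporter SLC2A1 (3.24, depth-paired 1.81), and depth-paired 2 of 9 were higher, median 0.48.

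Neural genes were present in the same cells, many at a lower level. SOX2, a transcription factor of neural progenitors, had UMIs in all 72 cells, with 87.0, 548 and 1076 CPM as lowest, median and highest, and 561 CPM summed against 1006 CPM in the others (-0.84). NES, the progenitor filament nestin, had 725 CPM against 338 CPM (1.10) and VIM 11493 CPM against 7054 CPM (0.70). Among 18 tested radial glia genes 2 were higher, NES and TNC, and 6 lower, median -0.81, with HES5 at -2.14, HOPX at -1.98, PTPRZ1 at -1.94 and the lipid-binding FABP7 at -1.15. Astrocyte genes had 1 of 12 higher, the gap junction gene GJA1 (1.15), and 7 lower, median -1.13, among them GFAP, at 193 CPM against 560 CPM (-1.53), S100B (-1.06) and the glutamate transporters SLC1A3 (-1.31) and SLC1A2 (-3.49). Depth-paired, radial glia genes had 1 of 18 higher and 5 lower, median -0.74, and astrocyte genes 0 of 11 higher and 4 lower, median -0.87, with GFAP at -1.32 and NES, no longer called, at 0.24. Regional genes had 0 of 11 higher and 1 lower, median -0.40, and depth-paired 0 either way, median -0.37. Over all genes tested, 7.71% were lower against all others.

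Genes of neurons and their precursors had the lowest median of the 32 lists. Of 17 tested, 0 were higher and 15 lower, median -3.31. The interneuron factor DLX2 had 0, 4.60 and 263 CPM per cell and 35.3 CPM summed against 573 CPM (-3.98), the microtubule gene DCX 25.3 CPM against 311 CPM (-3.56), and GAD2, which makes GABA, 4.41 CPM against 114 CPM (-4.41). Of the 15 lowest named genes, the first were the neuropeptide genes TAC3 (-5.24) and NPY (-4.67). STMN2 had 0 UMIs. A cluster of 1747 other cells with CALB2, SCGN, DCX and GAD2 among its leading genes had a median of 5904 UMIs. Depth and the kind of cell cannot be told apart in this result, and the part of neither was tested. Against the depth-paired cells 6 of 12 were lower and 1 higher, median -0.69, with DLX2 at -1.66, DCX at -1.44, GAD2 at -1.79, TAC3 at -2.71 and TUBB3, lower at -1.53 before, at -0.12.

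**Figure D4:**
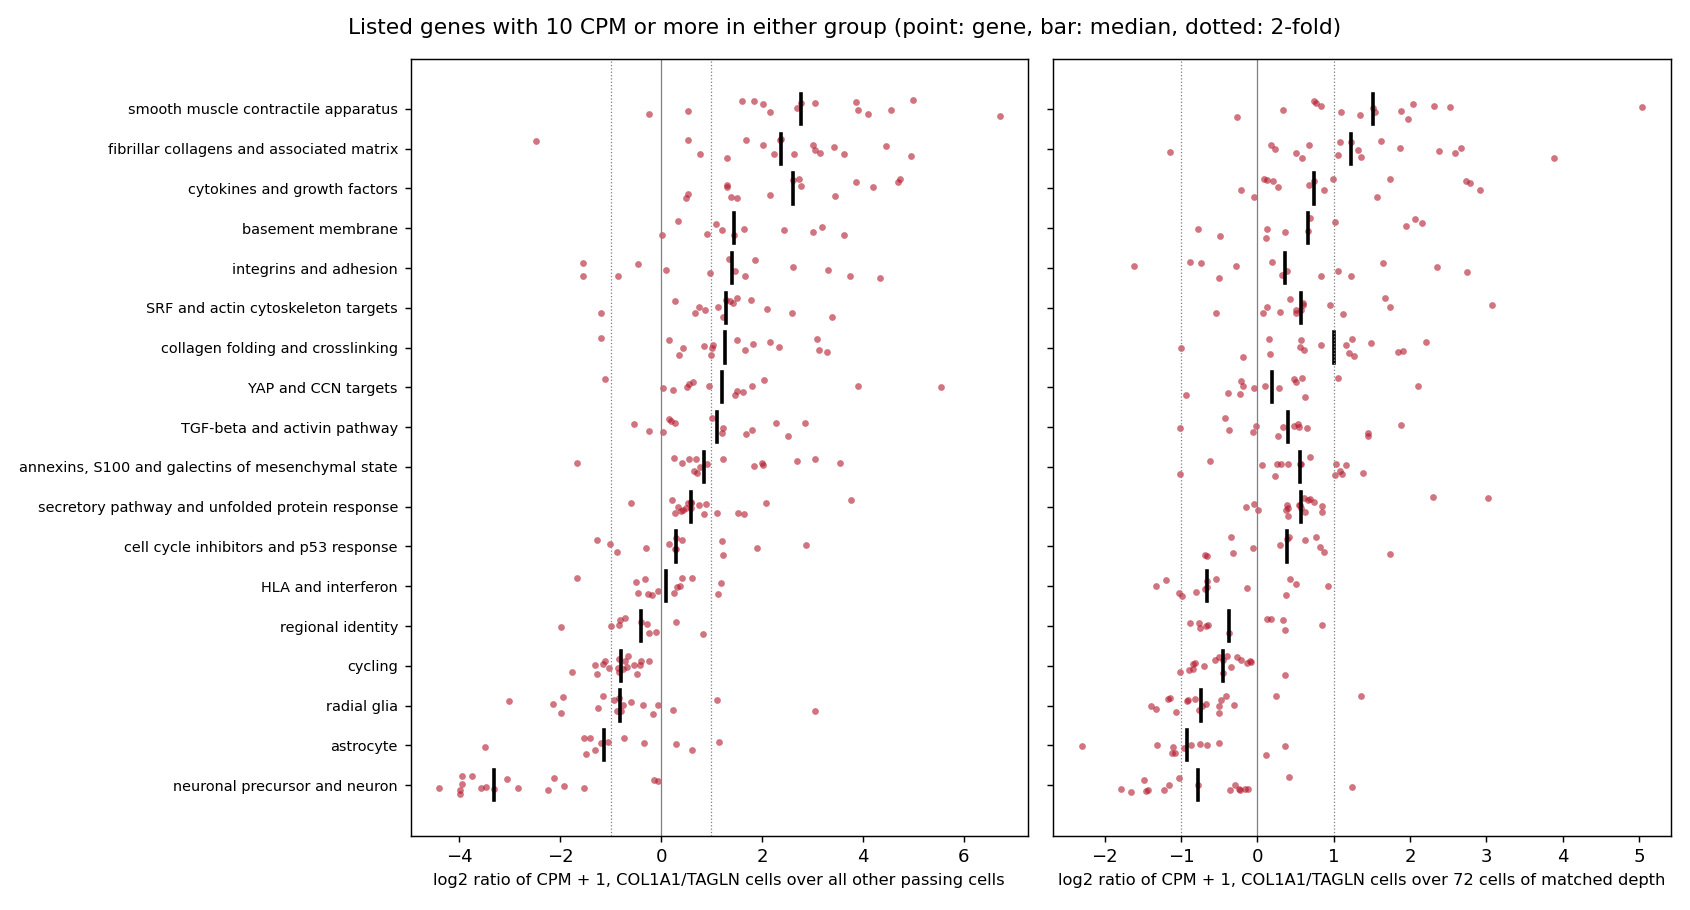
Each point is a listed gene with 10 CPM or more in the 72 cells or in the 9900 others, plotted by its log2 ratio against all other cells (left) and, for the same genes, against 72 cells paired by depth (right), with bars at the list medians and dotted lines at 2-fold. The neuronal list, with a median of -3.31 against all other cells, lay much nearer to 0 against depth-paired cells, while the contractile and matrix lists kept most of their points above it.

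Many markers of other cell types that could hold such genes had 0 UMIs, and a few were higher. Of 12 pericyte and mural genes 3 reached the filter: MCAM was higher (2.0) and the potassium channel gene KCNJ8 lower (-1.22), and depth-paired 1 of 3 was higher, MCAM (1.51), and 0 lower. PDGFRB had 6.61 CPM against 7.05 CPM and RGS5 1.54 CPM against 1.34 CPM, and the summed level of the list ranged from 0 to 243 CPM per cell in the 72 cells and from 0 to 886 CPM in the others. Of 14 fibroblast and leptomeningeal genes 8 had 0 UMIs, among them DCN, LUM, OGN and ALDH1A2, while CXCL12 was higher, with 510 UMIs, PDGFRA was lower, and IGFBP2 was not called. Depth-paired, the calls of these 3 genes were the same. No endothelial gene was tested, PECAM1 and CLDN5 had 0 UMIs and CDH5 had 2. Of 10 neural crest genes SOX10 and FOXD3 had 0 UMIs, and of 2 tested the transcription factor gene ETS1 was higher (2.23, depth-paired 1.36). Of 16 skeletal and cardiac muscle genes 11 had 0 UMIs, MYOD1, MYOG and TNNT2 among them, and both tested genes, ACTA1 (3.96, depth-paired 4.03) and the troponin gene TNNC1 (3.15, depth-paired 1.92), were higher. Both reached 10 CPM only in the 72 cells, so they could only come out higher. Of 10 microglial and blood genes 9 had 0 UMIs, AIF1, CX3CR1, CSF1R and PTPRC among them. The choroid plexus and oligodendrocyte lists had 1 and 3 genes tested, with 0 and 1 higher, MBP, and 0 and 1 lower, PDGFRA. Depth-paired, 0 of 3 oligodendrocyte genes were higher, with MBP at 0.27, and of 2 choroid plexus genes 1 was lower, KCNJ13. The mesenchymal transcription factors TWIST1, TWIST2 and SNAI2 had 5, 4 and 18 UMIs, RUNX1 (2.03), RUNX2 (1.87) and FOXC1 (1.34) were higher, and ZEB2 was lower (-1.56); depth-paired, 0 of 6 were called either way. No further cell type name is given to the 72 cells, and the part that other cell types play in the results was not tested.

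Cell cycle genes had 0 of 18 tested higher and 6 lower, median -0.79, and against depth-paired cells 1 of 17 lower, median -0.45. Over all genes tested, 7.71% were lower against all others and 2.6% depth-paired. MKI67 had 72.3 CPM against 116 CPM (-0.67) and UMIs in 25 cells. Thinned, a UMI of both MKI67 and TOP2A was in 8 of 72 cells (11.1%, 4.92 to 20.7) against 1298 of 9207 others (14.1%, 13.4 to 14.8), and the intervals overlap. The unthinned shares were 27.8% and 17.8%, and 3 of 142 STMN2 cells (2.11%) carried both genes when thinned. Inhibitors of the cycle and p53 targets had 4 of 13 higher and 2 lower, median 0.29. CDKN2B (2.87), CDKN2A (1.91) and CDKN1A (1.21) were higher, CDKN2C (-1.27) was lower, and CDKN2A had 145 CPM against 37.8 CPM with UMIs in 65 of 72 cells. Depth-paired, those 4 were at 0.81, 0.88, 0.63 and -0.68, and none was called. The HLA and interferon list had 2 of 14 higher and 1 lower, median 0.10, but against depth-paired cells 0 of 13 higher and 2 lower, HLA-DRA and HLA-DPA1, median -0.66. The HLA class II genes HLA-DRA (-0.49) and CD74 (0.61) were not called against all others, and depth-paired they were at -1.20 and -0.66. Immediate early genes had 3 of 12 higher and 3 lower, median -0.41, and FOS was lower at 103 CPM against 335 CPM (-1.69), depth-paired -1.38. That list had 2 of 13 higher and 2 lower depth-paired, median -0.32.

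Cells that passed the TAGLN limit alone had levels between those of the 72 cells and of all others for several genes. ACTA2 had 2507 CPM in the 72 cells, 1136 CPM in the 456 TAGLN cells and 170 CPM in all others, of which the 456 are a part. ACTG2 had 659, 34.5 and 5.29 CPM, and TGFBI 33.7, 0.612 and 0.121 CPM. Against the 456 cells 323 of 8829 genes (3.66%) were higher in the 72 cells and 172 (1.95%) lower. The contractile list had 10 of 15 higher and 0 lower (median 1.35), and the matrix list 11 of 16 and 0 (1.47). The cytokines had 7 of 15 and 0 (0.99), and YAP targets 2 of 14 and 1 lower (0.21). Of 10 listed epithelial genes 4 were tested, and all 4 were higher. Here too, genes that reached 10 CPM only in the 72 cells could only come out higher. The 456 cells were themselves deeper than the rest, with a median of 24721 UMIs, and 39 of them (8.55%) were marked as doublets.

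The 72 cells were not uniform. When split evenly by COL1A1 level at 365 CPM, the upper 36 had a median of 50187.5 UMIs and the lower 36 had 73011.5, and 257 of 8753 genes (2.94%) were higher and 329 (3.76%) lower in the upper cells. ACTA2 was alike in both, at 2417 and 2586 CPM, while ACTG2 had 981 CPM in the upper and 373 CPM in the lower cells (log2 1.39) and C6orf15 968 and 227 CPM (2.09). The matrix list had 7 of 17 higher and 1 lower, median 0.84, with FN1 at 141 and 34.1 CPM (2.01). The cytokine list had 6 of 15 higher, median 0.79, led by CXCL12 with 202 and 32.8 CPM (2.59). CREB3L1 had 31.4 and 6.23 CPM (2.16). The cycling list went the other way, with 13 of 17 lower and 0 higher, median -1.63, and TOP2A at 25.8 and 163 CPM (-2.61). These are summed values: TOP2A had UMIs in 27 of the 72 cells, with 18.6% of them in 1 cell. Per cell, COL1A1 level had a Spearman coefficient of -0.17 with TOP2A and -0.28 with MKI67. COL1A1 both chose the cells and made this split.

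Some of the largest differences between the upper and the lower cells rested on few cells, and they were picked after their values were seen. KRT17, a keratin of stressed epithelium, had 76.5 and 2.49 CPM, but 1 cell held 76.3% of its UMIs, and 1 cell held 76.9% of those of KRT81. IER3, an early stress gene, was spread over 28 cells, with 146 and 13.3 CPM (3.37), and SLC1A5, a glutamine carrier, over 37 cells, with 56.8 and 6.23 CPM (3.00). When the cells were split by depth instead, 346 of 8822 genes (3.92%) were higher and 207 (2.35%) lower in the deeper 36, and the matrix and contractile lists had medians of -0.01 and -0.21. The 3 tested markers had 0 higher and 2 lower there, median -1.53, and the epithelial list had a median of -1.22. The cycling list had 5 of 18 lower, median -0.52, and the astrocyte list 3 of 11 higher, median 0.61. The upper COL1A1 cells were the shallower ones, and the part of depth in their differences was not tested.

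Within the 72 cells, ACTA2 and COL1A1 levels were nearly unrelated in rank. ACTA2 level had a Spearman coefficient of 0.78 with TAGLN, 0.71 with CALD1, 0.66 with TPM1 and 0.51 with ACTG2, but 0.09 with COL1A1. COL1A1 level had 0.59 with FN1, 0.55 with C6orf15, 0.47 with ACTG2, -0.58 with FABP7 and -0.45 with SOX2. Its coefficient with total UMIs was -0.15, and that of ACTA2 was -0.10. HLA-DRA had -0.48 with ACTA2. These coefficients describe 72 cells that share 1 library and differ in depth, and they carry no test.

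Some contractile genes were high in only a few of the cells. MYL9, the regulatory light chain of smooth muscle myosin, had UMIs in 17 of 72 cells, and 5 cells held 80.6% of its 129 UMIs. TPM2, β-tropomyosin, had UMIs in 37 cells, with 73.1% of 476 UMIs in 5 cells. ACTA1, the skeletal muscle actin, had UMIs in 9 cells, with 91.4% of 152 UMIs in 5 cells. All 9 of these also had TPM2, IGFBP3 and ANKRD1 UMIs, against 28, 28 and 40 of the other 63, but their median was 82283 UMIs against 59286, and depth alone raises such shares. MYL9 did not go with them: 1 of the 9 had it, against 16 of 63. The elastin gene ELN was in 9 cells. These genes were chosen after their values were seen. Actin genes are nearly identical in their coding parts, so ACTA1, ACTA2 and ACTG2 counts are uncertain where reads could be shared. Genes on the opposite strand overlap TAGLN (PCSK7) and ACTA2 (STAMBPL1, FAS and ACTA2-AS1), and the use of strand in counting is not stated in the labels or headers.

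Cells of the same rule were present in the day 220 library, where 11 of 524 cells (2.10%, 1.05 to 3.73) met it. That library was deeper, with a median of 124320 UMIs in the 11 cells and 45767 in the 513 others, so the shares of the 2 days cannot be compared at equal chance of passing a limit in UMIs. ACTA2 had 1680 CPM in the 11 cells against 228 CPM in the other day 220 cells (log2 2.88), ACTG2 160 CPM against 4.8 CPM (4.8) and C6orf15 235 CPM against 5.37 CPM (5.21). ANKRD1 (6.51), MYLK (3.89), CNN1 (4.18), COL5A1 (4.86), LIF (3.25), IL11 (2.44) and CREB3L1 (3.11) were higher there too. Of 10157 genes 772 (7.6%) were higher and 1634 (16.1%) lower at day 220. The genes called higher in both libraries numbered 394, which is 55.0% of the day 160 and 51.0% of the day 220 calls, and those lower in both 404, 56.8% and 24.7% of the calls, while 7 and 3 were called in opposite directions. COL1A1 and TAGLN chose the cells in both libraries, and how other genes follow from that choice was not tested. No depth pairing was done at day 220, so its ratios and the calls shared by both libraries are not at equal depth.

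Some features differed between the days, though with 11 cells and no replicate the difference itself was not tested. TNC was 627 CPM against 74.8 CPM at day 160 and 414 CPM against 518 CPM at day 220 (3.05 and -0.32). TGFBI, at 33.7 CPM in the 72 cells, was 0.709 CPM in the 11 against 0.0407 CPM in the other day 220 cells. Both day 220 values of TGFBI were under 3 UMIs, which are 2.13 CPM in the 11 cells and 0.122 CPM in the others. KRT18 had 0 UMIs in the 11 cells. IGFBP5 was 4894 CPM against 391 CPM at day 220 (3.64), beside 1.51 at day 160, and POSTN, at 0 UMIs in the 72 cells, had 31 UMIs in the 11 cells, with a log2 ratio of 2.98. HOXB6, a positional gene of the hindbrain and trunk, had log2 ratios of 2.98 at day 220 and -0.71 at day 160. All 14 tested cycling genes were lower in the 11 cells, with MKI67 and TOP2A at 0 UMIs, where 3 UMIs correspond to 2.13 CPM.

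**Figure D5:**
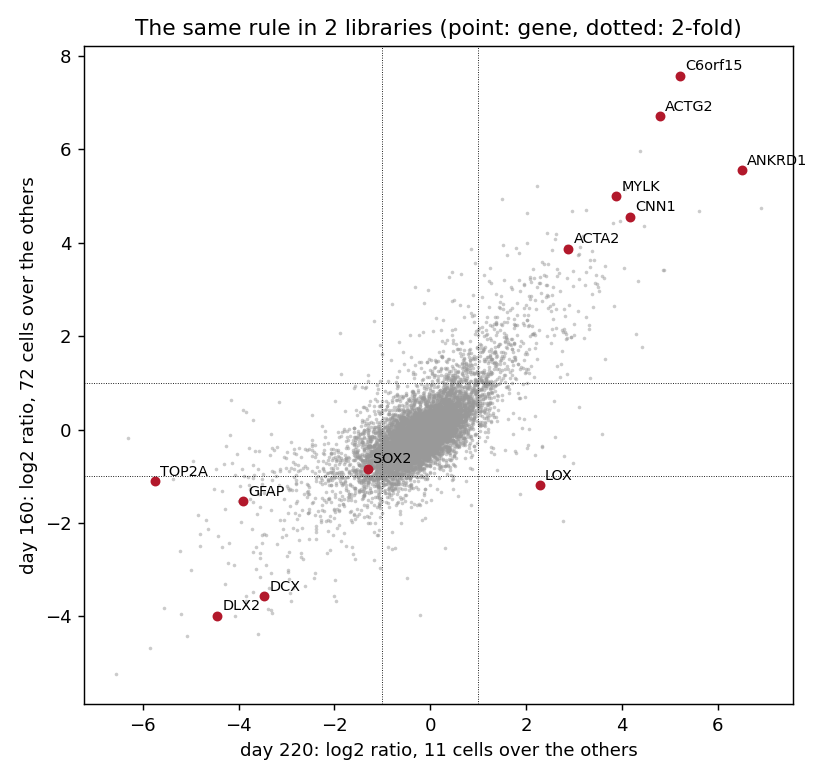
Each point is a gene with 10 CPM or more in at least 1 group at both days, plotted by its log2 ratio at day 220 (x, 11 cells over 513 others) and at day 160 (y, 72 cells over 9900 others), leaving out COL1A1 and TAGLN, with dotted lines at 2-fold. C6orf15, ACTG2, ANKRD1, MYLK, CNN1 and ACTA2 were high at both days, DLX2, DCX and GFAP low at both, and LOX low at day 160 (-1.19) and high at day 220 (2.28).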

How the data were processed

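Gene-by-barcode tables of UMI counts were used as deposited. Per the file headers, these deposited counts came from Cell Ranger 7.0.1, and the submitters' processing notes name Cell Ranger 7, Seurat 4 and hg38. The sources used here do not say whether intronic reads or strand were used. The time-point label gave each library its day.

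The 72 cells, the 32 gene lists and the comparisons were chosen with earlier results of these data known. Named genes are the 5 markers, list members, the 20 highest log2 ratios among genes seen in 20% of the 72 cells and the 15 lowest among genes seen in 20% of the others. Not all of these are printed, and some are not reported here. Counts were summed per group and scaled to CPM, the counts per 1000000 UMIs of the group. Ratios used a pseudocount of 1 CPM and genes of 10 CPM or more in either group. A gene that reached this level in only 1 group could only come out higher in that group. Intervals of ratios are exact conditional binomial and of shares Clopper-Pearson, at 95%, covering counting error only. Fold ratios with a printed interval have no pseudocount. Total depth was 4537635 UMIs in the 72 cells and 124309629 in the others.

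Scrublet in scanpy 1.11.5 (expected rate 0.06) marked doublets, which were kept in the printed values. Clustering used 2000 variable genes, 30 components, 15 neighbours and Leiden resolution 0.5. Steps were checked on simulated counts. Gene positions are GENCODE release 29, matched by Ensembl identifier, and promoters are RefSeq, GRCh38.p14, matched by symbol.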

Additional observations from a re-analysis of the deposited data

Results flagged for a closer look

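LOX, the lysyl oxidase that crosslinks collagen, moved in opposite directions in the 2 libraries. It had 16.1 CPM in the 72 contractile COL1A1 cells against 37.9 CPM in the other day 160 cells, a log2 ratio of -1.19, and 32.6 CPM in the 11 day 220 cells of the same rule against 5.90 CPM in the other day 220 cells, a log2 ratio of 2.28. The difference between the days was not tested, since each day was 1 library. Against 72 day 160 cells paired by depth the log2 ratio was -0.996, so the day 160 gene was no longer 2-fold lower there. SRFBP1 overlaps LOX on the opposite strand.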

How the results depend on the processing

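Each result was recomputed under 12 other settings and 1 chosen after seeing the data, the 1 to 1 depth pairing. The number of chosen cells was 91 at 25% mitochondrial UMIs, 71 without doublets, 78 and 57 with limits of 2 and 5 UMIs, and 34 when chosen on counts thinned to 5000 UMIs. The 717 higher and 711 lower genes moved by less than 1.5 times without doublets, at 25%, under both other UMI limits, without mitochondrial and ribosomal protein genes, and with each cell weighted equally. They were 399 and 385 against 5 depth-matched cells per chosen cell (median 38205.5 UMIs, so not fully matched), and 304 and 233 against cells paired 1 to 1. They were 454 and 302 with a pseudocount of 10 CPM, 312 and 242 at 50 CPM or more, and 1090 and 1270 with no filter. On thinned counts the lower genes numbered 1319 and the higher genes 1061. When thinned counts only chose the cells, and full counts were compared, 1187 were lower and 895 higher. Named genes whose call ended under the 1 to 1 pairing, beside those given above, had log2 ratios there of 0.95 (ZYX), -0.55 (FHL1), -0.94 (F3), 0.57 (LOXL1), 0.27 (TGFBR2), 0.75 (HBEGF), 0.83 (ITGAV), -0.51 (NCAM1), 0.37 (GJA1), -0.97 (S100B), 0.74 (CNN2), 0.50 (LATS2), 0.27 (MBP), 0.57 (RUNX1), -0.02 (RUNX2), 0.90 (FOXC1), -0.64 (ZEB2), -0.23 (CALB2) and 0.20 (IGFBP5). SLC1A2 (-2.30), NPY (-1.49), KCNJ8 (-0.43), SCGN (-0.24) and STMN2 (-0.29) were under 10 CPM in both groups of that pairing and could not be called. The cause of these moves was not tested. Among the markers and the named genes with the highest and lowest log2 ratios, no value changed sign under these settings. RUNX2, a list member called higher against all other cells, was just below 0 under the 1 to 1 pairing, at -0.02, and was not called there. The signs of other list members were not checked under every setting. No paired analysis was possible because each day is 1 library with no replicate, and no replicate could be left out. Depth limits rare transcripts: 3 UMIs are 0.661 CPM in the 72 cells and 0.0241 CPM in the others.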
